A study of Mus musculus with 3 samples.

Results

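Mir191 and Mir425 are 2 microRNA (miRNA) genes of the same strand of mouse chromosome 9, and they were 2 of the 173 miRNA genes whose hairpin or mature sequence could be placed on the deposited positions. The members were chosen by name and position, with earlier results of these data known. The libraries are 3 biological replicates of MIN6, a mouse insulinoma line used as a model of the pancreatic beta cell, which makes insulin. All of the cells were grown in high-glucose medium (25 mM) with heat-inactivated fetal bovine serum, and no other genotype, treatment or time point enters here. A single condition was sequenced, so that the results below describe levels, ends and mismatches within MIN6 cells and no comparison between conditions was possible. The deposited values are expected counts, that is, read numbers per alignment, with a read of several loci divided among them, and they summed to 9269795, 10816006 and 10218743 mapped reads in replicates 1 to 3. A count of 0 therefore allowed up to 3 reads, or 0.277 to 0.324 RPM (reads scaled to 1000000 mapped reads). Of the miRNA markers of cell type, only the endocrine list could give values, so that the markers do not test the beta cell label against other tissues. The 3 endocrine markers miR-375-3p, miR-7a-5p and miR-7b-5p summed to between 334866 and 371577 RPM per library, almost all of it miR-375-3p (taken as the most abundant start of the 3p arm of Mir375), and the 12 markers of other tissues had no placed hairpin and were not analysed here.

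A miRNA is cut from a hairpin in the primary transcript, first by Drosha at the base of the stem and then by Dicer near the loop, and either arm of the stem can be loaded into Argonaute as the mature strand. Bases 2 to 8 from the 5′-end, the seed, pair with target mRNAs, so that a miRNA whose 5′-end is shifted by a single base (a 5′-shifted isomiR) carries another seed, whereas changes at the 3′-end leave the seed as it is. Neighbouring hairpins are often cut from a common primary transcript, and their mature levels can still differ because each hairpin is processed and each strand is kept separately. miR-191 is widely expressed and has been studied mainly in cancer, and miR-425 is its clustered neighbour.

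The 4 mature sequences, given as in RefSeq (GRCm38.p6), share no seed with one another. They are shown 5′ to 3′ with the seed in capitals, because the levels and shifts below turn on the first base and the last bases of these molecules.
miR-191-5p: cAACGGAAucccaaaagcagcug
miR-191-3p: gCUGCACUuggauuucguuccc
miR-425-5p: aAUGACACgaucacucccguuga
miR-425-3p: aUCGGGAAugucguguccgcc

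The 5′-shifted forms on which the results turn carry the following seeds. A shift of +1 starts 1 base downstream of the reference 5′-end and a shift of -1 starts 1 base upstream.
miR-191-5p+1: aACGGAAUcccaaaagcagcug
miR-191-3p+1: cUGCACUUggauuucguuccc
miR-425-3p-1: cAUCGGGAaugucguguccgcc
miR-425-3p-2: cCAUCGGGaaugucguguccg

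Among the mature mouse miRNAs of the RefSeq table, the seed of miR-425-5p was shared by miR-489-3p, and the seeds of the other 3 mature members, miR-191-5p+1, miR-191-3p+1 and miR-425-3p-1 were each shared by 0 other entries.

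On the coordinates of the files (mm9 in the submitters' processing notes), the Mir191 hairpin spans chr9:108470650-108470723 and the Mir425 hairpin spans chr9:108471108-108471192, both on the plus strand with 384 nt between them. miR-191-5p occupies 108470656 to 108470678 and miR-425-5p occupies 108471120 to 108471142, so that the 2 reference 5′-ends lie 464 nt apart. In the GENCODE annotation of GRCm38, used only for how the features lie to each other, both hairpins sit inside the 1 exon of the lincRNA transcript 4833445I07Rik-201. Mir191 also sits in the intron of the transcript 4833445I07Rik-202, which has 2 exons, and Mir425 lies outside that transcript. The cluster is therefore intronic for only 1 of the 2 hairpins and 1 of the 2 transcripts in this annotation, and the next protein-coding gene downstream on the same strand is Dalrd3. The annotation also holds a miRNA gene, Gm24083, on the opposite strand at Mir191, where 1, 2 and 3 reads aligned in replicates 1 to 3.

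miR-191-5p, the strand kept from the 5′ arm of Mir191, was among the most abundant miRNAs of MIN6 cells. It was read 197089, 218165 and 189200 times, equal to 21261, 20171 and 18515 RPM, or 19982 ± 1383 RPM (SD, n = 3). Its reference start ranked 7 of all 5′-starts in each library. In the order of named arms it followed miR-99b-5p at 31246 ± 4580, miR-127-3p at 26881 ± 2886 and miR-22-3p at 23141 ± 1111 RPM, and it preceded miR-148a-3p at 14809 ± 831 RPM and the miR-26a-5p loci Mir26a-2 and Mir26a-1 at 12241 ± 600 and 12228 ± 601 RPM (SD, n = 3 each). None of these 6 neighbours overlapped miR-191-5p in range, and each lay on the same side of it in all 3 libraries. Mir26a-1 and Mir26a-2 carry the same mature sequence, whose reads were divided between them.

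miR-425-5p was far lower, at 3989, 4341 and 3626 reads, equal to 430, 401 and 355 RPM, or 396 ± 38.1 RPM (SD, n = 3). It was the arm of rank 72 of the named arms, and its start ranked 136, 138 and 152 of all starts in replicates 1 to 3. Its place in the order was not resolved. miR-132-3p at 413 ± 10.0, miR-128-3p (Mir128-1) at 409 ± 30.3 and miR-138-5p (Mir138-1) at 402 ± 29.7 RPM stood above it by their means, and miR-101a-3p at 394 ± 23.8, miR-103-3p (Mir103-2) at 389 ± 25.0 and miR-138-5p (Mir138-2) at 389 ± 27.3 RPM stood below it. The ranges of all 6 overlapped that of miR-425-5p, which was below all 6 in replicate 3 but below only miR-132-3p in replicate 2.

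The reads of the 2 neighbours on the same strand thus differed by a nearly constant factor. Folds here and below are folds of reads. The yield of reads per molecule was not measured for any sequence, and the SD between libraries does not cover it. Reads of miR-191-5p exceeded those of miR-425-5p by 49.4-, 50.3- and 52.2-fold, or 50.6 ± 1.42-fold (SD, n = 3), in 3 of 3 libraries. An exact two-sided sign-flip permutation test of the log ratio gave p = 0.25, which is the smallest p that 3 libraries allow. Both levels were highest in replicate 1 and lowest in replicate 3, so that the ratio varied less between libraries than either level. That order was not particular to the pair. From replicate 1 to replicate 3, miR-99b-5p fell from 34097 to 25964 RPM and miR-127-3p from 30060 to 24426 RPM. By contrast, miR-22-3p was lowest in replicate 2 and miR-375-3p rose from 334275 to 371065 RPM.

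The 5′-shifted isomiR miR-191-5p+1 was close in level to the main product of the neighbouring hairpin. It was read 3582, 3886 and 3386 times, equal to 386, 359 and 331 RPM, or 359 ± 27.5 RPM (SD, n = 3), and its ratio to miR-425-5p was 0.898, 0.895 and 0.934. It was the lower of the pair in 3 of 3 libraries, by a margin of 0.909 ± 0.0215 (SD, n = 3) as a ratio. Its start ranked 148, 155 and 157 of all starts.

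**Figure D1:**
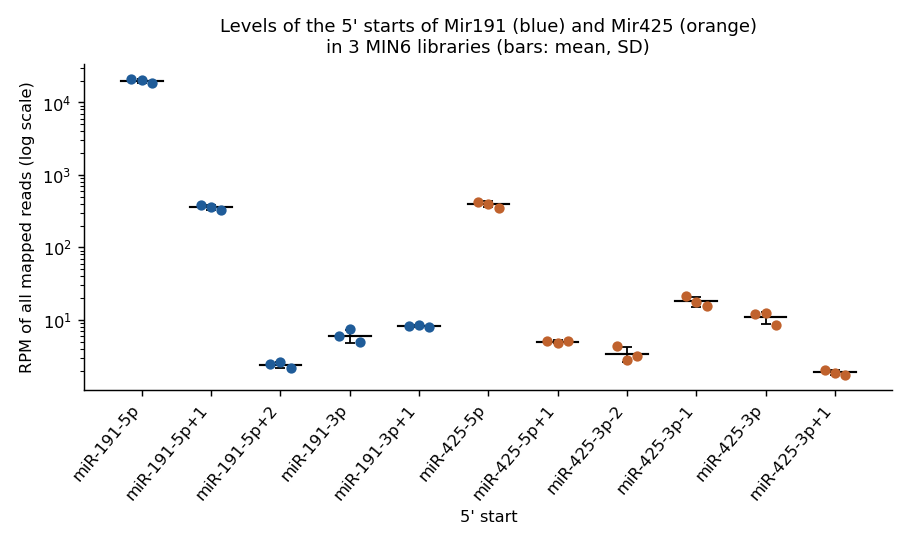
Level in RPM of all mapped reads (log axis) of the 11 starts within 3 nt of a reference 5′-end that had at least 10 reads in every library, for Mir191 (blue) and Mir425 (orange). Each dot is 1 of the 3 libraries, and bars give the mean with the SD. miR-191-5p lies near 19982 RPM, miR-191-5p+1 and miR-425-5p lie close together at 359 and 396 RPM, and the 3p starts lie at or below 21.3 RPM.

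Both clusters chosen for comparison also held unequal members. In the miR-106b/93/25 cluster, miR-25-3p was highest at 4848 ± 195 RPM and miR-106b-5p was lowest at 370 ± 20.5 RPM, a difference of 13.1 ± 0.238-fold (SD, n = 3). In the cluster of miR-183, miR-96 and miR-182, miR-182-5p was highest at 37073 ± 2197 RPM and miR-96-5p was lowest at 299 ± 28.1 RPM, a difference of 125 ± 9.58-fold (SD, n = 3). The 50.6-fold difference between miR-191-5p and miR-425-5p lay between these values, and the ranges of the 3 folds over the libraries did not overlap. Among the 30 pairs of placed neighbouring hairpins whose 5′-ends lay within 1 kb on the same strand, Mir191 and Mir425 had the fold of rank 2, below Mir27b and Mir24-1 at 171-fold and above Mir29a and Mir29b-1 at 41.6-fold, and the median pair differed by 3.93-fold. Mir24-1 and Mir29b-1 each have another genomic copy that carries the same mature miRNA, so that their loci received a share of those reads, whereas the reads at the 4 arms of Mir191 and Mir425 were whole numbers, with none divided with another locus. Hairpins with too few reads could not be placed. Pairs with a very low member are therefore missing, and the high end of this order is incomplete.

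**Figure D2:**
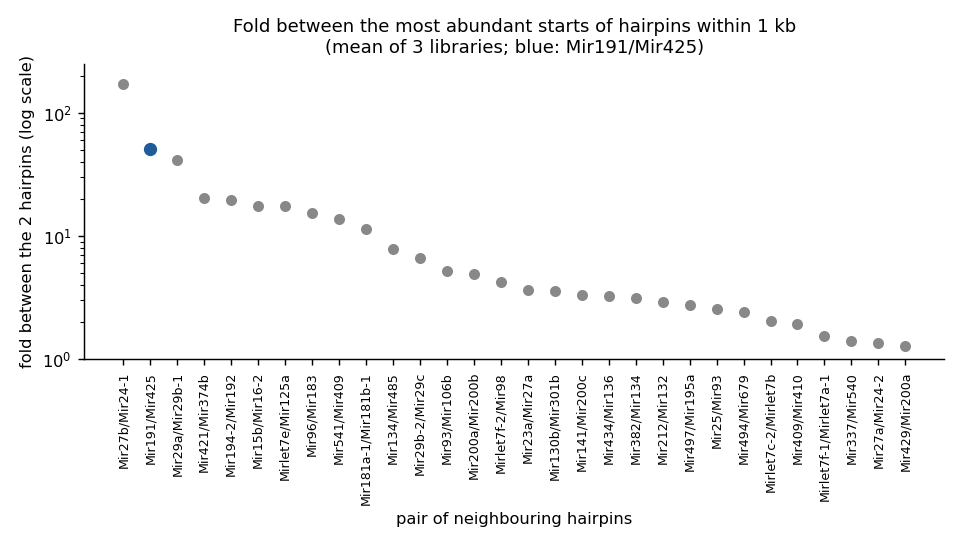
Fold between the most abundant 5′-starts of the hairpins in each of the 30 neighbouring pairs within 1 kb (y axis, log scale; mean of 3 libraries), ordered from the largest. The Mir191/Mir425 pair (blue) stands at rank 2 with 50.6-fold, and the pairs extend down to 1.29-fold.

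The other arm of each hairpin was the minor product, and far more so for Mir191. The miR-191-3p arm, counted as all starts within 3 nt of its reference 5′-end, was at 14.8, 16.8 and 13.4 RPM. The miR-425-3p arm held 367, 373 and 298 reads, or 39.6, 34.5 and 29.2 RPM, so that it exceeded miR-191-3p by 2.30 ± 0.333-fold in 3 of 3 libraries although its hairpin gave fewer reads. The 3p arm made up 0.0737% ± 0.00721 of the arm reads of Mir191 and 7.87% ± 0.416 of those of Mir425 (SD, n = 3). As ratios of the 5p arm to the 3p arm these were 1364 ± 128 for Mir191 and 11.7 ± 0.666 for Mir425. These shares were ranked among 107 hairpins with at least 1000 arm reads in every library. Each arm also needed at least 30 reads at its top start over the 3 libraries. The share of the minor arm in Mir191 was at rank 6 from the lowest and that in Mir425 at rank 67, beside a median of 3.55%. Hairpins with a minor arm below 30 reads were left out, so that the low end of this order is incomplete.

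On both 3p arms the most abundant 5′-start was not the reference start. On miR-191-3p the +1 start had 77, 93 and 82 reads and the reference start had 55, 80 and 50, a ratio of 1.40 ± 0.239 (SD, n = 3). Intervals (95%, Wilson) for the +1 share and the reference share overlapped in replicates 1 and 2, at 47.8% to 64.2% beside 32.3% to 48.5% and 43.9% to 58.3% beside 36.9% to 51.2%, and were apart in replicate 3, at 51.5% to 67.7% beside 28.9% to 44.8%. On miR-425-3p the -1 start led with 197, 190 and 159 reads, the reference start followed with 111, 133 and 88, and the ratio was 1.67 ± 0.210 (SD, n = 3), with intervals of the shares that did not overlap in any library. A -2 start had 40, 30 and 33 reads and a +1 start had 19, 20 and 18 reads. The miR-425-3p arm thus spread over 4 starts in the proportions 10.0% ± 1.70 for -2, 52.7% ± 1.50 for -1, 31.8% ± 3.35 for the reference and 5.53% ± 0.454 for +1 (SD, n = 3).

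The 5p arms started far more uniformly. The reference start held 98.2% ± 0.0169 of the miR-191-5p arm and 98.5% ± 0.0720 of the miR-425-5p arm (SD, n = 3). Most of the remainder was the +1 start. miR-191-5p+1 made up 1.78%, 1.75% and 1.76% of its arm, with Wilson intervals from 1.70% to 1.84% over the libraries, and miR-425-5p+1, with 48, 52 and 52 reads, made up 1.19%, 1.18% and 1.41%. The +2 start of miR-191-5p had 23, 28 and 22 reads. The -1 start of miR-191-5p was read 6, 13 and 5 times, and that of miR-425-5p 3, 0 and 0 times. Over the 144 arms with at least 1000 reads in every library, the share of the +1 start had a median of 0.162%, and miR-191-5p ranked 27 and miR-425-5p ranked 34 from the highest. The 5 arms whose +1 share was nearest to that of miR-191-5p were the 3p arm of Mir301b at 1.78%, miR-200b-3p at 1.73%, miR-497a-5p at 1.70%, miR-700-5p at 1.85% and miR-129-5p (Mir129-1) at 1.60%, and their levels ran from 163 to 2142 RPM. This likeness is of a single measure over 3 libraries. Reads have no molecular identifiers, so that these intervals cover counting error only.

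The 3′-ends separated the 2 main products. Reads of miR-191-5p were mostly 23 nt long, at 75.5%, 75.5% and 76.0% in replicates 1 to 3 or 75.7% ± 0.288 (SD, n = 3), with 18.9% ± 0.115 at 24 nt and 3.71% ± 0.349 at 22 nt. Reads of miR-191-5p+1 ended on the same bases, with 76.4% ± 0.780 at 22 nt and 21.7% ± 0.480 at 23 nt. The annotated length of 23 nt is thus the main form of miR-191-5p.

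The reads of miR-425-5p fell instead into a short and a long form, 3 nt apart. The 22-nt form made up 38.2%, 36.7% and 37.9% of the reads (37.6% ± 0.811) and the 25-nt form made up 37.6%, 38.6% and 35.7% (37.3% ± 1.45; SD, n = 3), so that they could not be ranked against each other at this spread. Reads of the annotated length of 23 nt made up only 10.4% ± 0.497 and those of 24 nt 12.3% ± 0.783. Not all of these matched the genome at their last base. A match there was found in 313 of 418, 306 of 431 and 292 of 396 reads of 23 nt, and in 1453 of 1501, 1638 of 1674 and 1262 of 1295 reads of 25 nt, in replicates 1 to 3. Sequences of the forms that match the genome are shown, with capitals for the bases that the longer ones add to the 22-nt form.
miR-425-5p, 22 nt: aaugacacgaucacucccguug
miR-425-5p, 23 nt: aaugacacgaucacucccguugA
miR-425-5p, 24 nt: aaugacacgaucacucccguugAG
miR-425-5p, 25 nt: aaugacacgaucacucccguugAGU

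miR-425-5p+1 did not share that division. Of its 48, 52 and 52 reads, 34, 38 and 34 were 24 nt long, which ends on the same base as the 25-nt form of the reference start, and only 2, 1 and 3 were 21 nt long, which ends with the 22-nt form. The long 3′-end thus held 69.8% ± 3.96 of the reads of miR-425-5p+1 beside 37.3% ± 1.45 of those of miR-425-5p, and the short one held 3.95% ± 1.93 beside 37.6% ± 0.811 (SD, n = 3), with no overlap between the ranges of the 2 starts. For the long 3′-end of miR-425-5p+1, Wilson intervals ran from 51.8% to 83.2% over the libraries.

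Across the 144 arms with at least 1000 reads, the most abundant length held a median of 69.9% of the reads. It held 75.7% in miR-191-5p, at rank 53 from the highest, and 38.2% in miR-425-5p, at rank 135. The most abundant length at least 2 nt away from the main one held a median of 4.14%, and miR-425-5p, at 36.7%, ranked 1 on this measure, whereas miR-191-5p, at 0.581%, ranked 130. This measure was chosen after the lengths of miR-425-5p had been seen. In 4 of the 144 arms both lengths held at least 30% of the reads, namely miR-425-5p, miR-21a-5p (24 and 22 nt), miR-331-3p (22 and 20 nt) and miR-300-3p (22 and 20 nt).

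**Figure D3:**
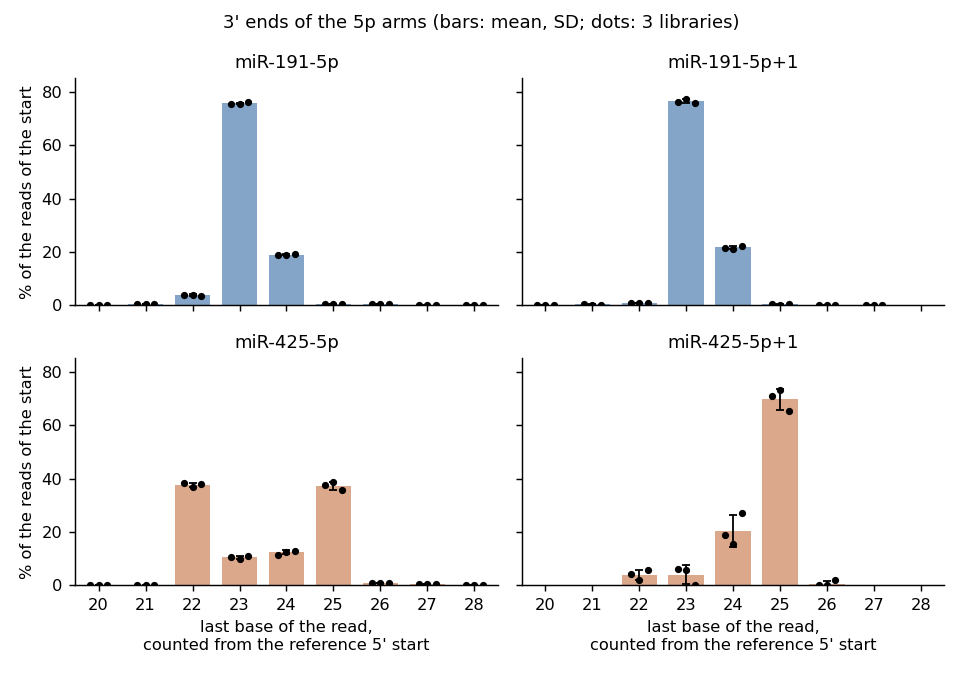
Share of the reads of each start (y axis, %) that end at each position, counted from the reference 5′-end (x axis, nt), for miR-191-5p, miR-191-5p+1, miR-425-5p and miR-425-5p+1. Bars are means with the SD and dots are the 3 libraries. Both miR-191 starts peak at position 23, miR-425-5p has peaks of 37.6% and 37.3% at positions 22 and 25, and miR-425-5p+1 has a single peak of 69.8% at position 25.

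In the minimum free energy fold of the RefSeq hairpins (RNAfold, -35.0 kcal/mol for Mir191 and -31.7 kcal/mol for Mir425), the ends of these forms lie as follows, with positions counted from the 5′-end of each hairpin. In Mir191 the 23-nt form ends at position 29, which pairs with position 47. The reference miR-191-3p start at position 49 pairs with position 27, so that the 5p strand extends 2 nt past the base paired with that start. The more abundant +1 start of miR-191-3p, at position 50, pairs with position 26. In Mir425 the 22-nt form ends at position 34, within the unpaired stretch from 32 to 35, and the 25-nt form ends at position 37, which pairs with the reference start of miR-425-3p at position 54. The -1 and -2 starts of miR-425-3p, at positions 53 and 52, pair with positions 38 and 39. These are predicted pairs of isolated hairpins, and their part in the choice of ends was not tested.

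Terminal mismatches, that is, reads whose last base or bases differ from the genome, are the mark of 3′ non-templated additions, nucleotides that transferases add after cutting. They were less frequent on miR-191-5p than on miR-425-5p, and the base seen most often differed. The genome sets which added bases can be seen at each end, so that neither difference can be read as one in additions. Terminal mismatches were present on 2.77%, 2.73% and 2.55% of the miR-191-5p reads, or 2.68% ± 0.116, and on 6.59%, 6.63% and 7.12% of the miR-425-5p reads, or 6.78% ± 0.290 (SD, n = 3). The ranges of the 2 arms over the libraries did not overlap. On miR-191-5p a single A was the most frequent, at 1.55% ± 0.0709, before a single U at 0.475% ± 0.0594. On miR-425-5p a single U was the most frequent, at 4.37% ± 0.249, before a single A at 0.753% ± 0.174 (SD, n = 3). Over the 144 arms the share had a median of 7.08%, with miR-425-5p at rank 75 and miR-191-5p at rank 106 from the highest.

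These shares miss every added base that equals the next base of the genome. The base after the 23-nt end of miR-191-5p is U and the base after the 22-nt end of miR-425-5p is A, so that an added U could not be seen on the former and an added A could not be seen on the latter. Where the next base permitted it, a mismatching U was seen on both. On the reads of miR-191-5p whose templated part ended at 22 nt, where the next base is G, 10.7% had a U there. Another 486, 486 and 351 reads had U in place of that G before a later matching base and are not among them. On miR-425-5p a mismatching U was carried by 6.96% of the reads with a templated part of 22 nt, by 11.1% at 23 nt and by 1.83% at 25 nt. An added base cannot be told here from a changed last base of a longer form. An added A was carried by 1.72% of the miR-191-5p reads at 23 nt and by 2.73% at 24 nt. The most frequent forms with an added base are shown with that base in capitals.
miR-191-5p, 23 nt with an added A: caacggaaucccaaaagcagcugA
miR-425-5p, 22 nt with an added U: aaugacacgaucacucccguugU

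The miR-425-3p starts carried more. miR-425-3p had terminal mismatches on 25.0% ± 0.621 of its reads and miR-425-3p-1 on 26.7% ± 4.95, mostly a single U (19.3% to 23.3% and 18.4% to 24.9% over the libraries). Of the 40, 30 and 33 reads of miR-425-3p-2, 29, 24 and 25 had one, or 76.1% ± 3.76, and it was a single U in 27, 24 and 24 of them. Among the reads of miR-425-3p-2 whose templated part was 21 nt, 93.9% carried the added U. The lowest library of the -2 start, at 72.5%, lay above the highest library of the other 2 starts, at 30.2%, and those 2 overlapped each other. These totals do not match the 3′-ends. The templated end at 21 nt of miR-425-3p-2 is the same base as that at 20 nt of miR-425-3p-1. It held 80.1% ± 4.44 and 8.68% ± 3.09 of their reads (SD, n = 3). At that base, terminal mismatches were on 28 of 30, 24 of 25 and 25 of 27 reads of the -2 start. On the -1 start they were on 17 of 24, 7 of 12 and 7 of 12. The miR-191-3p starts, with at most 93 reads a library, stood at 6.38% ± 2.39 for the reference and 6.33% ± 2.31 for the +1 start (SD, n = 3).
miR-425-3p-2 with an added U: ccaucgggaaugucguguccgU

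**Figure D4:**
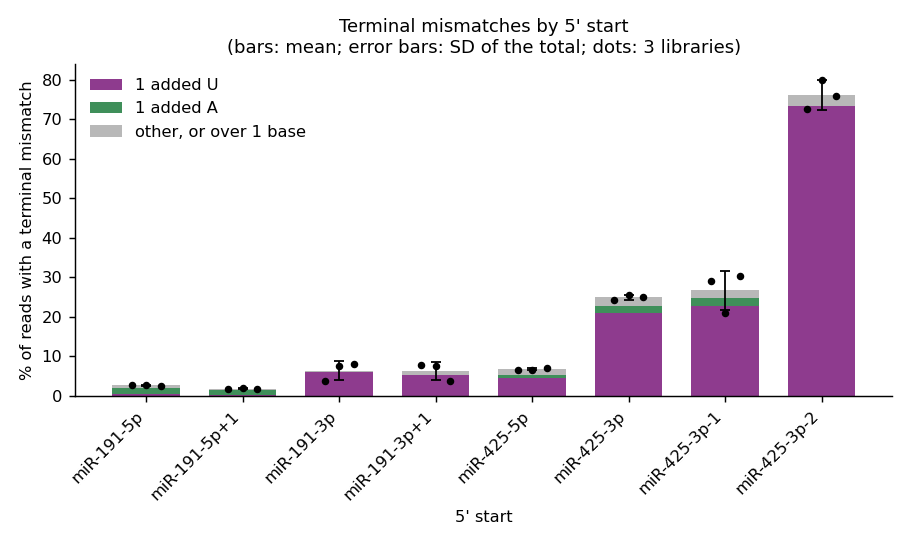
Share of reads with a terminal mismatch (y axis, %) for 8 starts of Mir191 and Mir425. Bars are means over 3 libraries, divided into a single added U (purple), a single added A (green) and other or longer endings (grey), dots are the libraries and error bars give the SD of the total. The share is lowest on miR-191-5p+1, at 1.75%, and highest on miR-425-3p-2, at 76.1%, and A exceeds U on the miR-191-5p starts alone among these 8. An added U cannot be seen at the main 3′-ends of the miR-191-5p starts, where the next genome base is U.

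Between read positions 2 and 20, the mismatch with the highest share in either main product was a C in place of the A at position 10 of miR-425-5p (A10C, positions counted from 1 at the 5′-end of the read). It was present in 562, 683 and 573 reads, or 14.1%, 15.7% and 15.8% (15.2% ± 0.970; SD, n = 3), and was present in both length forms, at 13.7% to 14.5% of the 22-nt reads and 15.1% to 16.5% of the 25-nt reads over the libraries. It is shown in a capital.
miR-425-5p with A10C: aaugacacgCucacucccguug

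The size of A-to-C mismatches followed the position in the read and not the base of the hairpin. In miR-425-5p+1 the same base of the hairpin is at read position 9, and there C was read in 4 of 152 reads, or 2.63% (Wilson interval 1.03% to 6.57%). Position 13 of miR-425-5p had C in 0.0680% ± 0.0194 of the reads, whereas the same base, at read position 12 of miR-425-5p+1, had C in 36 of 152 reads, or 23.7% (17.6% to 31.0%). The same held for Mir191. C replaced A at position 7 of miR-191-5p in 0.808% ± 0.0326 of the reads (A7C), and at the same base in miR-191-5p+1, now at read position 6, in 7.68% ± 0.220 (A6C). It replaced the A at position 13 of miR-191-5p in 0.0490% ± 0.00683 (A13C), and at the same base in miR-191-5p+1, at read position 12, in 18.1% ± 0.959 (A12C; SD, n = 3).

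Over the arms with at least 1000 reads, A-to-C mismatches had a median of 9.15% at read position 6, 2.78% at position 9, 12.9% at position 10, 7.71% at position 11, 18.7% at position 12 and 6.80% at position 20, beside 0.0221% at position 13. The A10C of miR-425-5p lay within the range of the 33 arms with an A at position 10, from 5.13% to 16.3%, at rank 5. The values of miR-191-5p+1 at positions 6 and 12 also lay within the ranges of the other arms, from 6.32% to 12.3% and from 7.10% to 32.5%. miR-191-5p has no A at positions 6, 9 to 12, 17 or 20. Reads without any mismatch made up 93.1% ± 0.304 of miR-191-5p, 76.7% ± 0.836 of miR-425-5p and 69.8% ± 0.817 of miR-191-5p+1 (SD, n = 3), so that counting such reads only would lower the latter 2 against the former. The cause of these mismatches was not tested.

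**Figure D5:**
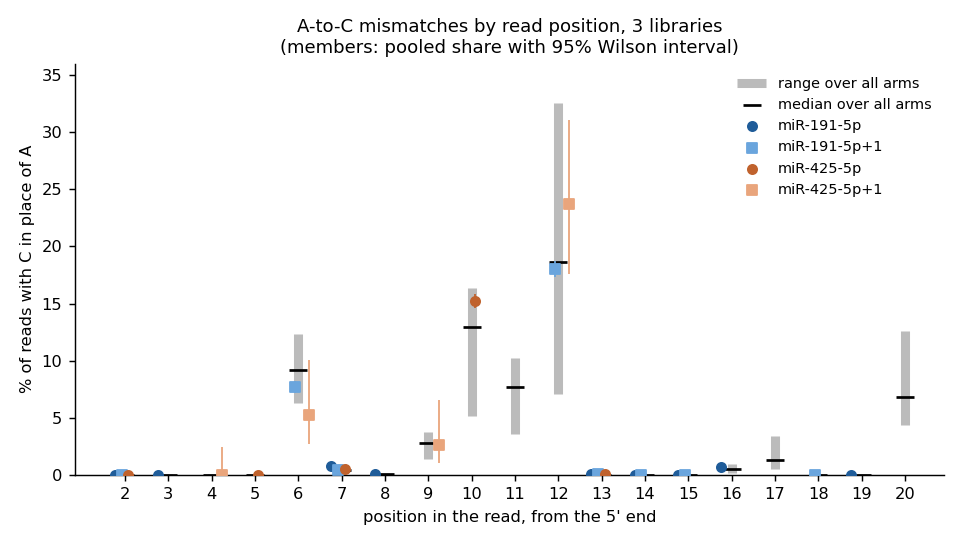
Share of reads with C in place of a genomic A (y axis, %) at positions 2 to 20 of the read (x axis), for 4 starts of Mir191 and Mir425 (pooled over 3 libraries, with 95% Wilson intervals) and for all arms with at least 1000 reads in every library (grey, range; black, median). A10C of miR-425-5p at 15.2% and A12C of miR-191-5p+1, at 17.4% to 19.2% over the libraries, lie within the ranges of the other arms at these positions.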

How the data were processed

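Small RNA from 3 MIN6 libraries was analysed. The values the authors deposited are expected counts of reads per alignment, not normalized. According to the methods of the study, adaptors were trimmed with cutAdapt, reads of 14 to 41 nt were aligned with Bowtie, the remaining reads were aligned near these matches with mismatches allowed, and reads of several loci were divided among them. The study allowed a single mismatch in the body of a read and up to 3 at its 3′-end, with a higher limit there for longer reads. Mismatched reads beyond these limits, or far from any exact match, were therefore not counted. The build is mm9 in the submitters' processing notes.

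Alignments marked exact end 1 base early, and this was corrected. RefSeq hairpins were placed where no base was excluded by a mismatch, at 20 bits or more (168 of 1005 hairpins, and 0 units with sequences reversed). The placement was tested on simulated reads of isolated hairpins, with an even mismatch rate before the last base and no divided reads. That setting is simpler than these libraries. RPM refers to all mapped reads, and an arm to starts within 3 nt. Python 3.11.15, numpy 2.4.6, pandas 2.3.3, matplotlib 3.10.9 and RNAfold 2.7.2 were used.

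Between libraries values are the mean ± SD, and shares have 95% Wilson intervals. The text names all 4 arms with their starts of at least 10 reads in every library, the 3 arms above and the 3 below each main product, the 5 arms nearest in +1 share, the miR-106b/93/25 and miR-183/miR-96/miR-182 clusters and miRNAs of the same seed. The members and lists were chosen with earlier results of these data known. The alternatives were exact or single-locus reads, other lengths, denominators and start windows, and leaving out each replicate.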

Additional observations from a re-analysis of the deposited data

How the results depend on the processing

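Of 26 alternative settings over 6 results, 9 moved the value by less than 1 SD between libraries and 17 by more. Leaving out each replicate moved it by less in 18 of 18 cases. Any 3 values must give that outcome, so that it says nothing about stability. No paired analysis of conditions was possible because only 1 condition was sequenced. With exact alignments only, miR-191-5p was at 24908 RPM, the miR-191-5p to miR-425-5p ratio was 61.4 and the share of miR-191-5p+1 was 1.33%, since more reads of the other forms hold a mismatch. The level of miR-191-5p was 23868 RPM with single-locus reads, 22743 RPM with reads of 16-27 nt, 24883 RPM with reads of 20-25 nt, 27888 RPM of the reads at the named hairpins and 31480 RPM of the mapped reads without miR-375. The level of miR-425-5p was 473, 448, 485, 552 and 623 under these 5 settings in the same order, because each has a smaller denominator. With no mismatch other than at the last base, terminal mismatches were at 2.31% for miR-191-5p and 5.76% for miR-425-5p, and with reads of 20-25 nt they were at 2.35% and 5.11%. The 152 reads of miR-425-5p+1 and the 3p starts are limited by depth. Names rest on hairpin placement, so that an arm that was not placed is missing from every rank.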

Other observations

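Short reads also started inside miR-191-5p. At hairpin positions 12, 13 and 14, which are 5 to 7 bases downstream of the reference 5′-end, there were 12.2 to 22, 10.3 to 15 and 43.1 to 51.9 reads per library, and the reads that started 4 to 10 bases downstream were 14 to 20 nt long with a mean of 17.0 to 17.2 nt. Of these reads, 11.1% to 17.1% were divided with another locus. Counted over both hairpins, 14 starts had at least 10 reads in every library, 8 of them in Mir191. The reads that fell outside the arms made up 0.0353% to 0.0490% of the Mir191 hairpin and 0.0251% to 0.105% of the Mir425 hairpin.

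Over the arms with at least 1000 reads, A-to-C was the most frequent substitution between read positions 2 and 20, with a mean of 2.64% over 656 positions with an A, before C-to-A with a mean of 0.219% over 590 positions with a C. The medians were 0.0250% and 0.0551%, so that the mean of A-to-C rests on the few read positions named above. The A10C of miR-425-5p ranked 33 of the 656.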
